A study of Mus musculus with 9 samples.

Results

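The 36 genes described here make, break down, export or anchor cyclic AMP signalling in mouse embryonic stem (ES) cells. They were taken from a fixed list of gene symbols and comprise 9 adenylyl cyclases, 14 phosphodiesterases, the exporter Abcc4, the stimulatory G protein gene Gnas and 11 A-kinase anchoring proteins (AKAPs), out of 18193 genes with a probe set of 1 symbol. Each gene was represented by its brightest such probe set over all arrays. Total RNA was measured on 9 arrays, 1 per group. The groups were undifferentiated ES cells, kept with leukemia inhibitory factor and doxycycline at 1 µg/ml, and cells 0.5, 1.5, 2.5 and 3.5 days into differentiation in serum without that factor (D0.5 to D3.5), each with doxycycline at 1 µg/ml (Dox+) or without it (Dox-). Per the series' design text, expression of constitutively active protein kinase A (PKA) is under the control of doxycycline in all of these cells. The sources used here do not say which medium switched the kinase on, which line it is or which promoter drives it, so groups are named by their medium.

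Cyclic AMP is made from ATP by membrane adenylyl cyclases, which the G protein subunit encoded by Gnas stimulates. Phosphodiesterases hydrolyse it, and Abcc4, an ATP-driven membrane transporter also called MRP4, carries it out of the cell. Its main sensor is PKA, whose regulatory subunits AKAPs hold at the membrane, the centrosome, mitochondria or the nucleus, often beside a cyclase or a phosphodiesterase. PKA can act back on the pathway, since it phosphorylates and activates several phosphodiesterases, and transcripts of some, such as Pde4b, are induced through the cyclic AMP-responsive factor CREB.

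Values are array signals on a linear scale with a mean of 100 per array. A difference is one of log2(signal + 16), where changes of dim genes come out too small. Of the 36 genes, 22 reached a signal of 50 on 2 or more arrays and were tested (61.1%, against 47.9% of all genes). The other 14 stayed under 50 on all 9 arrays: the cyclases Adcy1, Adcy2, Adcy4, Adcy5, Adcy8 and Adcy9, the phosphodiesterases Pde1a, Pde1c, Pde3a, Pde4a, Pde7b and Pde8b, and the anchoring genes Akap5 and Akap6. Actb probe sets gave 3' to 5' ratios from 1.60 to 1.98 over the 9 arrays, a range that bears on RNA quality. The pluripotency genes Pou5f1, Sox2, Nanog and Zfp42 read 2263, 2582, 1630 and 2834 in undifferentiated cells. Since each group is 1 array, days served as the repeats when media were compared, media as the repeats when days were compared, and p-values measure only the spread between these arrays. Their number limits the precision of every value. In these bulk samples, fewer cells of a type and less RNA per cell cannot be told apart.

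The windows around annotated starts are shown for 5 members with wide differences between media or days, to set their letters beside the signals. Adcy6 and Akap2 differed as widely, but had no match in the promoter table used. Each runs from 250 bases before to 50 bases after a start, 5′ to 3′ on the gene's strand, from RefSeq (GRCm38.p6), and is the most upstream listed start of its gene. Capitals mark TGACG, the core of the cyclic AMP response element, and GGGCGG, the GC box, on either strand; the full element TGACGTCA, which contains TGACG on both strands, was searched too.
Abcc4 (chr14:118706170-118706469, minus strand): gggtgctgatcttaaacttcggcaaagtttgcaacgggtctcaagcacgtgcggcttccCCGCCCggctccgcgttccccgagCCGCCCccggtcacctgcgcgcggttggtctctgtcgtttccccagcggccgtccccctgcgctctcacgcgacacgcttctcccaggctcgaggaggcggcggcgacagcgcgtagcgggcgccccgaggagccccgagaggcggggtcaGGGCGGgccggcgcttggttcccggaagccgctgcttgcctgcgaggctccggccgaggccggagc
Pde1b (chr15:103502784-103503083, plus strand): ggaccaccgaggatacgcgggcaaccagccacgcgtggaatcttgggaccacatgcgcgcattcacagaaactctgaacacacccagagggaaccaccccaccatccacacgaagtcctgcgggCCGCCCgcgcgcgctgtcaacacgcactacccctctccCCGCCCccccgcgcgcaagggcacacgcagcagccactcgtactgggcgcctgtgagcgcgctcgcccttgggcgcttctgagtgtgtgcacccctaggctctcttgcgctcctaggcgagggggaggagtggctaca
Pde10a (chr17:8801495-8801794, plus strand): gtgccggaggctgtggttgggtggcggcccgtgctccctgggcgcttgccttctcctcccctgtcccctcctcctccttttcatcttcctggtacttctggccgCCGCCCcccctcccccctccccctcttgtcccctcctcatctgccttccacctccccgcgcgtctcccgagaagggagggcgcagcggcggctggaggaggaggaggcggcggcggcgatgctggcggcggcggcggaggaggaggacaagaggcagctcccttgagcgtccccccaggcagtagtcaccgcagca
Pde4b (chr4:102421305-102421604, plus strand): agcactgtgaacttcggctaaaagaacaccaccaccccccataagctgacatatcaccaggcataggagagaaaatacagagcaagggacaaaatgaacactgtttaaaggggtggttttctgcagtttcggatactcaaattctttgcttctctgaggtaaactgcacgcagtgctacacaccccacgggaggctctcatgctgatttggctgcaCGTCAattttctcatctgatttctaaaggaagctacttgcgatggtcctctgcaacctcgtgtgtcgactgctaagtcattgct
Pde8a (chr7:81213015-81213314, plus strand): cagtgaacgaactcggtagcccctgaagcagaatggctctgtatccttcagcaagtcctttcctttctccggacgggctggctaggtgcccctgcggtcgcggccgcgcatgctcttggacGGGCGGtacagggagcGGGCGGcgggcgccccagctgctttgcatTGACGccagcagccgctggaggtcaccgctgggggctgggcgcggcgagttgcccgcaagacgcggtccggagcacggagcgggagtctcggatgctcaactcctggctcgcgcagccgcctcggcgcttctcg
Pde4b and Pde8a held 1 match of TGACG each, and Abcc4, Pde1b and Pde10a held 0 in the windows printed. Abcc4 held 3 matches of GGGCGG, Pde1b 2, Pde8a 2 and Pde10a 1. Over the 61 windows of the 29 members in the table, 19.7% held TGACG, against 20.8% of all 32851 windows. TGACGTCA was in 0 of the 61 and in 1.79% of all windows, and GGGCGG in 45.9% against 35.7%. Which starts these cells use was not measured.

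Abcc4 had the widest gap between the media of all 22 tested members, and Pde1b, a calcium- and calmodulin-activated phosphodiesterase, the next among those called. Both fell in Dox- relative to Dox+ on D2.5 and D3.5. No other member passed, so 2 of 22 did (9.09%), both lower in Dox-, beside 7.18% of the 8716 genes tested 4.35% called lower and 2.83% higher. The differences of the 22 members ran both ways, 11 up and 11 down, from -3.49 to 1.61, with a median of -0.01 (0.01 over all genes). The comparison of these 2 days was chosen in an earlier analysis from the same arrays, so its p-values are a description. Over all 4 days with the day as a block, limma called 0 of 22 members at a 5% false discovery rate, as it called 0% of all genes; 5 members had an unadjusted p under 0.05, and 11.8% of all genes.

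The exporter gene Abcc4 read 830.3 in undifferentiated cells. With doxycycline it read 842, 1506, 1871 and 946.5 on D0.5 to D3.5, and without it 828, 860.5, 162 and 65.1. The arms thus started level on D0.5, and on D2.5 and D3.5 both Dox- values lay below every other array, while the Dox+ arm was highest on D2.5. The fitted Dox- minus Dox+ difference on D2.5 and D3.5 was -3.49 ± 0.24 (SE, 2 days; limma adjusted p = 0.00135), and it was called under all 12 alternative settings. Day by day the difference was -0.02, -0.80, -3.41 and -3.57. Abcc4 has 1 probe set, so no second one checks it. Markers of the primed epiblast (Fgf5, Otx2 and Pou3f1) were also lower in Dox- on D2.5 and D3.5. On these days their summed signal was 3570 and 2395 with doxycycline, and 1347 and 107 without it. For the 4 pluripotency genes these sums were 4525 and 4966 with it, and 3423 and 1158 without. On D2.5 Nanog went the other way, at 1324 in Dox- and 826 in Dox+, while Pou5f1, Sox2 and Zfp42 were lower in Dox-. The widest gap was that of Sox2, at 284 in Dox- and 1508 in Dox+. The primed epiblast sum did not follow Abcc4 on all arrays. It was 206 in undifferentiated cells, and on D1.5 it was higher in Dox- (3499) than in Dox+ (2914). Their part in the difference of Abcc4 was not tested.

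**Figure D1:**
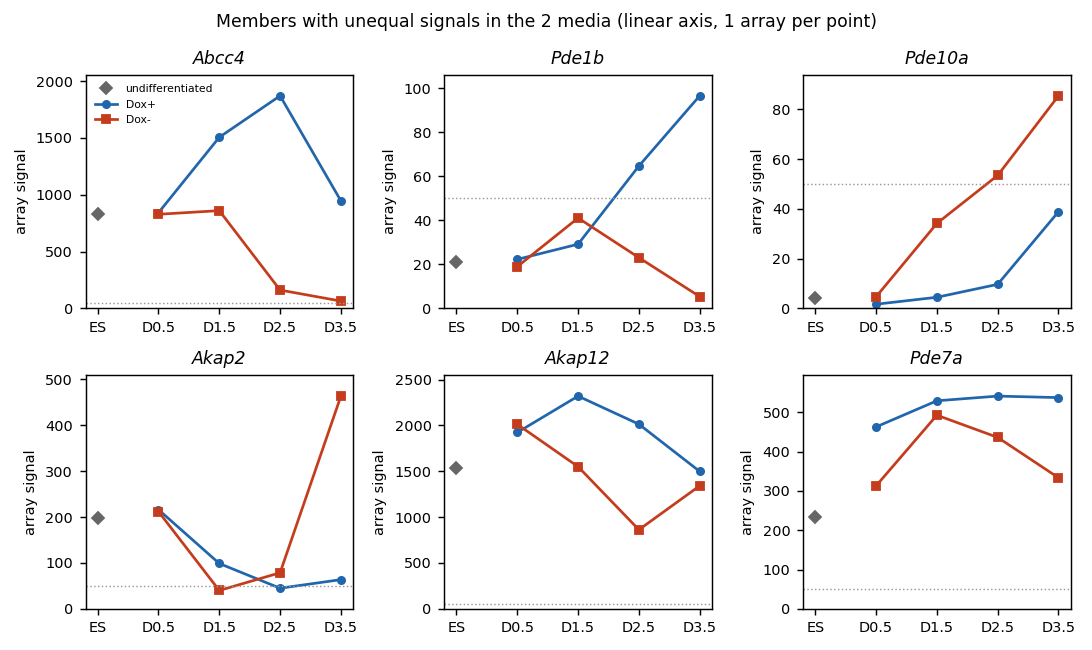
Array signal (linear axis, 1 array per point) of Abcc4, Pde1b, Pde10a, Akap2, Akap12 and Pde7a in undifferentiated cells (ES, diamond) and on D0.5 to D3.5 with (Dox+, circles) and without doxycycline (Dox-, squares); the dotted line is a signal of 50. On D2.5 Abcc4 reads 1871 in Dox+ and 162 in Dox-, and Akap2 463.6 in Dox- against 63.5 in Dox+ on D3.5.

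Of the 8 phosphodiesterase genes tested, 1 was called lower and 0 higher between the media on D2.5 and D3.5, with a median of -0.09. Of all genes, 4.35% were called lower and 2.83% higher. By day, 6 of 8 were higher in Dox- on D1.5, with a median of 0.33 (0.01 over all tested genes), and the median on D3.5 was -0.22 (0.00 over all). Pde1b read 21.3 in undifferentiated cells, 22.3, 29.2, 64.7 and 96.6 in Dox+, and 19.0, 41.1, 23.1 and 5.4 in Dox-. The arms therefore parted in opposite directions after D1.5, where Dox- was still the higher. Its fitted difference on D2.5 and D3.5 was -1.72 ± 0.34 (SE, 2 days; limma adjusted p = 0.0296). At a pseudocount of 1 it was -2.69 and at 64 it was -0.89, both called. The call was lost without D0.5 (-1.72, limma adjusted p = 0.0842) and without D3.5 (-1.05, resting on D2.5 alone). It was also lost without the day as a block (-0.96, limma adjusted p = 0.25). That last fit sets the D2.5 and D3.5 Dox- arrays against all other arrays of differentiating cells, so it mixes medium and day. Pde1b reached a signal of 50 through Dox+ arrays alone, so that a difference was in part built into its being tested.

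Pde10a, a phosphodiesterase for both cyclic AMP and cyclic GMP best known from striatal neurons, reached higher signals earlier in Dox-. It read 4.1 in undifferentiated cells, 1.7, 4.5, 9.7 and 38.9 in Dox+, and 4.7, 34.2, 53.5 and 85.5 in Dox-. By this brightest probe set, the Dox- array of each day was the higher, by 0.23, 1.29, 1.44 and 0.89, and the D3.5 value in Dox+ was near the D1.5 value in Dox-. The arm difference on D2.5 and D3.5 was 1.16 ± 0.43 and did not pass (limma adjusted p = 0.156; 0.0363 without D1.5). That fit counts the D1.5 gap, which went the same way, only as spread. Without D1.5 the same difference of 1.16 had an SE of 0.24. Pde10a passed the signal filter through Dox- arrays alone. Its second probe set read 2.0, 22, 40.7 and 61.1 in Dox- and 10.4, 7.0, 13.5 and 53.0 in Dox+, with a smaller mean gap on D2.5 and D3.5, at 0.55. It was lower in Dox- on D0.5, and its D3.5 value in Dox+ lay nearer to the D3.5 than to the D1.5 value in Dox-. Of the neuronal markers, 2 of 4 were under 50 on all arrays, and the 4 summed to 99.8, 182, 130 and 68.9 in Dox- and 101, 158, 163 and 142 in Dox+ from D0.5 to D3.5. The summed signal of the 5 streak and mesoderm genes was also higher in Dox- on each day, at 84.1, 546, 3795 and 2594 without doxycycline and 66.4, 70.6, 72.5 and 755 with it. In Dox- that sum fell from D2.5 to D3.5 while Pde10a rose, and on D1.5 Etv2 alone gave 408 of the 546. On D0.5 all 5 genes read under 50 in both media, with Kdr lower in Dox- (17.4 against 22.5). Pdgfra was lower in Dox- on D1.5 (15.8 against 17.5). The summed signal of the 4 endoderm genes had the same order, at 34.2, 182, 479 and 442 without doxycycline and 31.8, 45.0, 33.4 and 166 with it. The single genes did not all share it. On D3.5 Gata6 (335 in Dox-, 58.6 in Dox+) and Sox17 (85.2 and 14.2) were higher in Dox-. Foxa2 (11.5 and 78.6) and Cer1 (10.8 and 14.9) were lower there. Their part in the Pde10a values was not tested.

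Pde7a, a high-affinity phosphodiesterase specific for cyclic AMP, was lower in Dox- on all 4 days by its brightest probe set, without passing. Its signal was 463, 530, 542 and 538 in Dox+, against 313, 493, 436.5 and 334 in Dox-, and 233 in undifferentiated cells. The difference over 4 days was -0.40 ± 0.12 (SE, 4 days; limma adjusted p = 0.416). On D0.5 the brightest of the 7 Pde7a probe sets was the only one lower in Dox-. The next brightest read 240.8 in Dox- and 217.8 in Dox+ on that day. On D2.5 and D3.5 the mean difference was negative for all 7, from -0.48 to -0.14. On D1.5, Pde4b read 71.8 in Dox- and 22.6 in Dox+, Pde2a, which cyclic GMP activates, 223 and 133, and Pde4d 189 and 148. A dimmer Pde2a probe set gave the opposite order on D1.5 (27.6 in Dox- and 39.6 in Dox+), and another the same order (25.6 and 7.4). The gap of Pde4d, 0.32 on that day, was still 0.28 on D2.5 and turned to -0.32 a day later, and that of Pde2a went from 0.68 to -0.09 on D2.5. Pde4b read 36.1 and 50.9 in Dox- on D2.5 and D3.5, against 44.1 and 56.8 in Dox+.

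Over both media, D3.5 differed from D0.5 in 8 of the 22 tested members (36.4%, beside 22.0% of all genes), of which 5 rose and 3 fell. The genes that rose were Gnas, the cyclase gene Adcy6 and the phosphodiesterase genes Pde3b, Pde4b and Pde10a. Those that fell were Pde8a and the anchoring genes Akap1 and Akap11. Among all genes 11.8% rose and 10.2% fell, and the median was 0.08 over the members and 0.02 over all genes. So both a gene for the stimulus of cyclic AMP synthesis and genes for its breakdown rose on these days.

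Gnas rose in both media from the first day to the last. Its signal was 603 in undifferentiated cells, 771, 1168, 1437 and 1855 in Dox+, and 826, 1572, 1895 and 2211 in Dox-. No D3.5 array overlapped a D0.5 array, and Dox- was the higher on each day, by 0.10, 0.42, 0.40 and 0.25. D3.5 exceeded D0.5 by 1.33 ± 0.11 (SE, 2 media; limma adjusted p = 0.0035), whereas the arm difference over 4 days, 0.29 ± 0.08, did not pass (adjusted p = 0.416). The Gnas locus is imprinted and yields several transcripts. The name of this probe set marks it as shared by more than 1 transcript and does not say which, so which transcript rose cannot be told apart. A second probe set, of at most 55.6, gave 1.13. With the mean over all 5 probe sets, of which 3 stayed dim, the day difference was 0.54 and did not pass (adjusted p = 0.0518).

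Of the adenylyl cyclases, 3 of 9 were tested, and 1 changed with day, upward, beside 11.8% of all genes called upward. Adcy6, a cyclase that calcium inhibits, read 8.9 in undifferentiated cells, 30.0, 64, 145 and 148 in Dox+, and 24.9, 119, 135 and 187 in Dox-. It was lowest before differentiation and highest on D3.5 in both media, and on D1.5 the Dox- array was ahead by 0.76. The rise from D0.5 to D3.5 was 2.07 ± 0.26 (limma adjusted p = 0.00618) and was called under all 9 alternatives, with 2.56 at a pseudocount of 1 and 1.34 at 64. Adcy7 read 20 in undifferentiated cells, 39.7, 63.4, 75.2 and 50.0 in Dox+, and 49.5, 107, 32.6 and 67.4 in Dox-, with the arms crossing between days, and Adcy3 lay between 35.8 and 79.5 on all arrays. Between the media on D2.5 and D3.5, Adcy6 gave 0.11 ± 0.26, Adcy7 -0.29 ± 0.34 and Adcy3 0.10 ± 0.19, and none passed (limma adjusted p = 0.83, 0.647 and 0.781). Of the 6 dim cyclase genes, the highest value was 47.5, for Adcy1, and Adcy2 read 9.7 in undifferentiated cells and on D3.5 44.0 without and 31.4 with doxycycline.

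**Figure D2:**
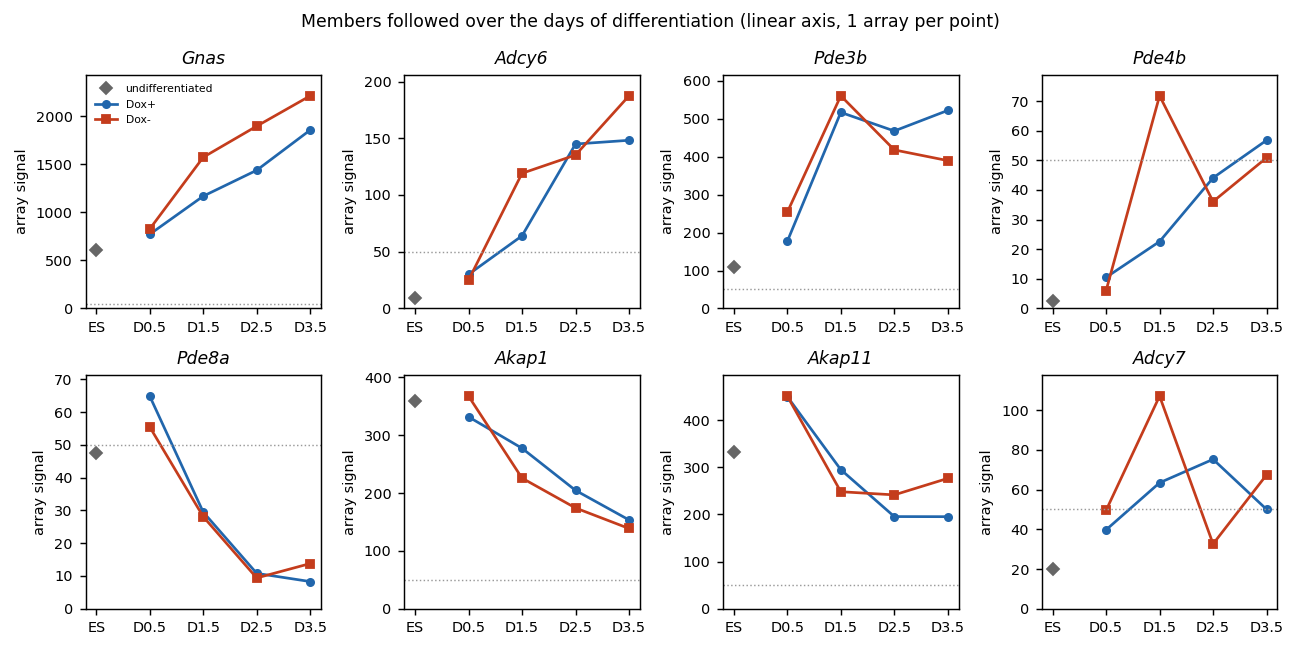
Array signal (linear axis, 1 array per point) of Gnas, Adcy6, Pde3b, Pde4b, Pde8a, Akap1, Akap11 and Adcy7 in undifferentiated cells (ES, diamond) and on D0.5 to D3.5 with (Dox+, circles) and without doxycycline (Dox-, squares); the dotted line is a signal of 50. On D3.5 Gnas is at 1855 in Dox+ and 2211 in Dox-, and Pde8a drops to 8.3 and 13.8.

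Among the 8 tested phosphodiesterases, 3 rose with day and 1 fell, beside 11.8% and 10.2% of all genes. Pde3b, which cyclic GMP inhibits and PKA can activate, read 110.3 in undifferentiated cells, 177, 517, 468 and 522 in Dox+, and 253.5, 560.5, 418 and 389.7 in Dox-. Most of its step lay between D0.5 and D1.5 in both media. D3.5 exceeded D0.5 by 1.04 ± 0.22 (limma adjusted p = 0.0238). Pde4b, a phosphodiesterase specific for cyclic AMP, read 2.6 in undifferentiated cells, 10.5, 22.6, 44.1 and 56.8 in Dox+, and 6.0, 71.8, 36.1 and 50.9 in Dox-. Its course was a steady climb in Dox+ and a peak on D1.5 in Dox-, and 2 further probe sets showed both. The latter read 56.5 and 55.9 in Dox- on D1.5, against 24.6 and 5.9 in Dox+. The rise of Pde4b, 1.53 ± 0.41 (limma adjusted p = 0.0457; 2.61 at a pseudocount of 1 and 0.71 at 64), was lost under 4 of 7 alternatives, with adjusted p up to 0.0745.

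Pde10a rose by 1.96 ± 0.39 (limma adjusted p = 0.0197), and its second probe set gave 1.74. At these low signals the size rests on the pseudocount, with 3.90 at 1 and 0.88 at 64, both called. Pde8a, a high-affinity phosphodiesterase specific for cyclic AMP, fell. It read 47.5 in undifferentiated cells, 64.9, 29.5, 10.8 and 8.3 in Dox+, and 55.5, 28.1, 9.4 and 13.8 in Dox-. The media were close on every day, and all arrays from D1.5 on lay below the first 3 arrays of the course. The difference between D3.5 and D0.5 was -1.50 ± 0.29 (limma adjusted p = 0.0186; -2.38 at a pseudocount of 1 and -0.73 at 64, both called). Adcy6, Pde4b and Pde10a passed the signal filter through arrays later than D0.5 alone, and Pde8a through the D0.5 arrays alone, so that part of their difference between days was built into their being tested. Pde2a, Pde4d and Pde7a, with differences of 0.04, -0.23 and 0.15 between those days, did not pass, nor did Pde1b (0.42 ± 0.64), whose media went apart.

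The 9 tested anchoring genes had 0 calls between the media on D2.5 and D3.5 and 2 with day, both downward. Of all genes, 7.18% were called between the media and 10.2% downward with day. Akap1, which tethers PKA to the outer mitochondrial membrane, read 358 in undifferentiated cells, 332, 277, 205 and 153.5 in Dox+, and 367.5, 226, 174 and 139 in Dox-. From D0.5 on, it stepped down on every day in both media. The difference between D3.5 and D0.5 was -1.17 ± 0.15 (limma adjusted p = 0.00713), and a dimmer second probe set gave -0.65. Akap11, whose product binds PKA and glycogen synthase kinase, read 333 in undifferentiated cells, 449.8, 295, 195 and 195 in Dox+, and 451, 248, 241 and 276 in Dox-. Both D0.5 values lay above all others, and the difference was -0.91 ± 0.19 (limma adjusted p = 0.0242).

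Akap2, an anchoring gene whose locus RefSeq lists as Pakap, parted between the media after D0.5, and in both directions. It read 197 in undifferentiated cells, 216, 98.7, 44.8 and 63.5 in Dox+, and 212, 39.9, 78.5 and 463.6 in Dox-. The Dox- arm was thus lower on D1.5 and higher on D2.5 and D3.5, by -1.04, 0.64 and 2.59. A second probe set gave the same order, with 149.5 without and 27.3 with doxycycline on D3.5. Over D2.5 and D3.5 the difference was 1.61 ± 0.48 and did not pass (limma adjusted p = 0.0926; with D2.5 left out, so that it rests on D3.5 alone, 2.59 ± 0.44 and 0.0207). The 7 fibroblast markers summed to 376 on the D3.5 Dox- array and to between 40.2 and 205 on the other 8, and 5 streak and mesoderm genes summed to 2594 there and to 755 on the D3.5 Dox+ array. Of the fibroblast genes, 3 of 7 were under 50 on all arrays, and the collagen genes carried the sum on the D3.5 Dox- array. There Col1a1 read 157 (at most 7.4 on the others), Col1a2 137 (at most 76.3) and Col3a1 29.4 (at most 8.4). Lum read 5.3, Postn 13.4, Dcn 8.2 and Thy1 25.5 on that array, whereas Dcn read up to 95.9 in Dox+. Their part in the Akap2 value was not tested.

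Akap12 (gravin), a membrane-associated scaffold for PKA, was lowest on the D2.5 Dox- array. It read 1540 in undifferentiated cells, 1922, 2319, 2013 and 1498 in Dox+, and 2012, 1549, 862 and 1341 in Dox-. On D2.5 and D3.5 the difference was -0.68 ± 0.26 (limma adjusted p = 0.168), with most of it on D2.5 (-1.21, and -0.16 on D3.5). Akap7, which anchors PKA beside ion channels, was lower in Dox- on all 4 days, at 87.2, 91.9, 76.0 and 91.7 against 110.6, 148, 143.5 and 128.5, and at 133 in undifferentiated cells. No Dox- value reached the lowest Dox+ value, and the difference over 4 days, -0.53 ± 0.12, had the smallest unadjusted p of the members in that comparison (0.00492) but did not pass over all genes (limma adjusted p = 0.416). The nuclear Akap8, the centrosomal and Golgi scaffold Akap9, Akap10 and Akap13 had differences between -0.32 and 0.28 on D2.5 and D3.5 and between -0.34 and 0.50 from D0.5 to D3.5, and none passed.

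**Figure D3:**
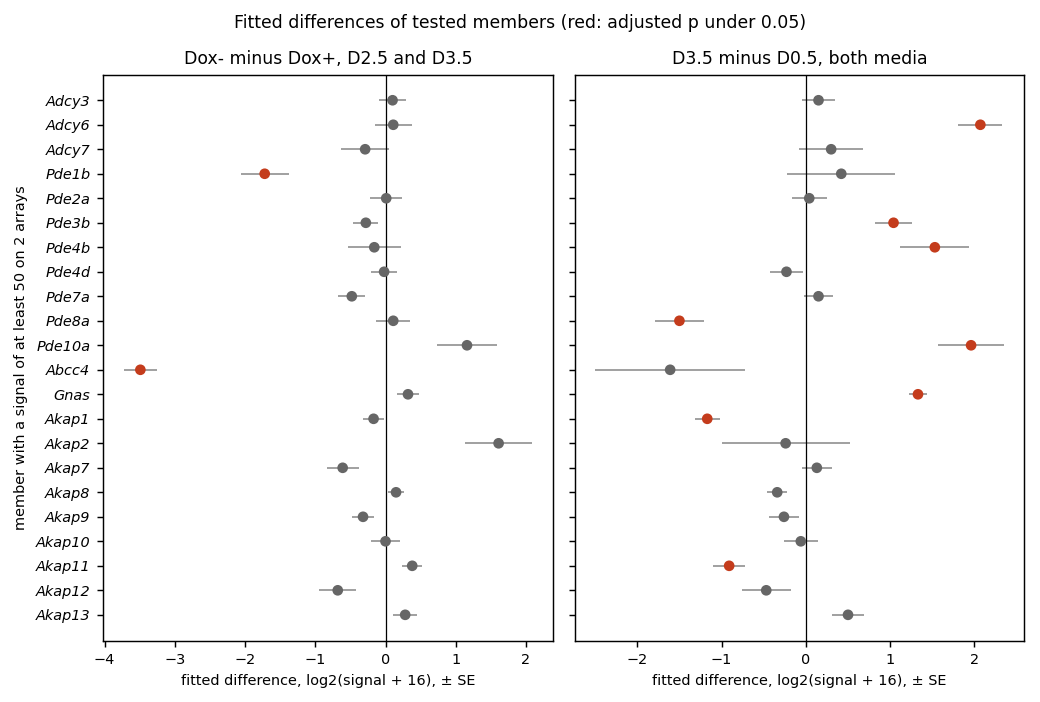
Fitted differences ± SE on the log2(signal + 16) scale for the 22 tested members, between the media on D2.5 and D3.5 (left; Dox- minus Dox+) and between D3.5 and D0.5 over both media (right); red marks an adjusted p under 0.05. On the left Abcc4 (-3.49) and Pde1b (-1.72) are red, on the right 5 members above and 3 below 0.

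Pair by pair, 0 of the 22 tested members were at least 2-fold apart between the media at the first time point, 3 at the second, 4 at the third and 3 at the last. The same shares of all tested genes were 0.115%, 2.75%, 7.86% and 8.93%. On D1.5 these were Pde4b and Pde10a, higher in Dox-, and Akap2, lower. On D2.5 they were Abcc4, Pde1b and Akap12, lower in Dox-, and Pde10a, higher. D3.5 added Akap2, higher in Dox-, to Abcc4 and Pde1b. These counts compare single arrays and carry no test. The 14 dim genes held 1 such pair on D3.5, Pde7b at 22.4 in Dox- and 0.8 in Dox+, both under 50. Over all 18193 genes with a probe set of 1 symbol the share was 5.81%. It includes the tested genes, so it is not a share of dim genes alone. A steady change of the media difference from day to day, fitted as their product, was called for 0 of 22 members and for 0% of all genes by limma, with 2 members and 8.44% of all genes at an unadjusted p under 0.05. These members were Abcc4 (-1.32 ± 0.33 per day) and Pde1b (-0.82 ± 0.24 per day; adjusted p = 0.407 and 0.535).

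**Figure D4:**
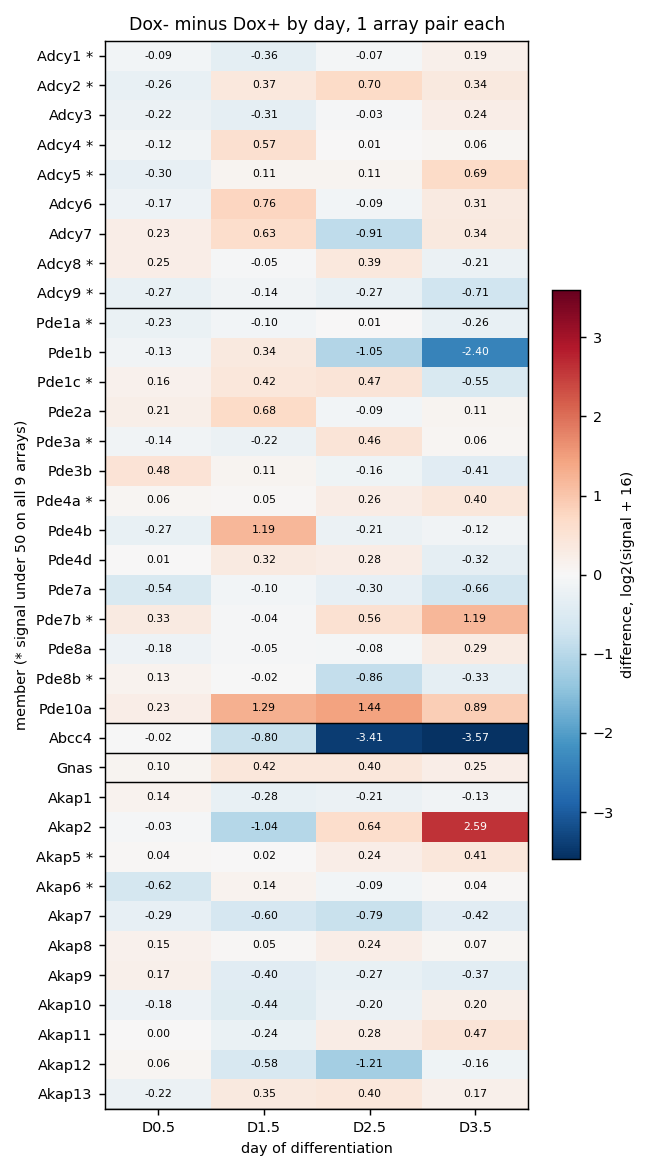
Dox- minus Dox+ difference of log2(signal + 16) on each day for all 36 members, 1 pair of arrays each, in blocks of cyclases, phosphodiesterases, exporter, G protein and anchoring proteins; an asterisk marks genes under a signal of 50 on all 9 arrays. Most cells lie near 0, and the widest are Abcc4 on D2.5 and D3.5 (-3.41 and -3.57) and Akap2 on D3.5 (2.59).

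On D0.5 most members lay slightly above undifferentiated cells. Against the 1 undifferentiated array, which both comparisons share, 19 of 22 tested members were higher in Dox+ on D0.5 and 18 in Dox-. Their medians were 0.35 and 0.32, where all tested genes had 0.04 and 0.00. Over all 36 genes, dim ones included, the medians were 0.23 and 0.15. At least 2-fold apart were 0 members in Dox+ and 1 in Dox- (Pde3b, by 1.09), beside 2.73% and 2.87% of all tested genes. On this scale the tested gene furthest up in Dox+ was Pde7a, with 463 against 233 (0.95), whereas at a pseudocount of 1 the dim Adcy6 and Pde4b were at least 2-fold apart, and the one furthest down in Dox- was Akap7, with 87.2 against 133 (-0.53).

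Other genes of the pathway were read from 6 lists. Over these lists 1 of 17 tested genes was called between the media on D2.5 and D3.5, beside 7.18% of all genes. None of the 7 tested PKA subunit and inhibitor genes, the 3 tested G protein alpha genes, the 4 further cyclase, phosphodiesterase, exporter and anchoring genes, or the 1 tested gene of the CREB family was called between the media on D2.5 and D3.5. Of 14 receptor genes that couple to the same G protein and have a probe set, 2 were tested, and 1 was called: Pth1r, the parathyroid hormone receptor, read 73.1 and 153.5 in Dox- and 34.0 and 23.3 in Dox+ (1.47 ± 0.32; limma adjusted p = 0.0399). It passed the filter through Dox- arrays alone. The other, the prostaglandin receptor gene Ptger4, read 52.4 and 10.9 in Dox- and 83.5 and 72.8 in Dox+ (-1.13 ± 0.30), and did not pass (limma adjusted p = 0.0694). All 6 further effector genes with a probe set, among the exchange factors, Popeye proteins and HCN channels, failed the filter.

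With day, 7 of the 17 genes tested over these lists were called, 6 upward and 1 downward, beside 22.0% of all genes, 11.8% upward and 10.2% downward. Pde5a, which hydrolyses cyclic GMP, rose by 2.08 ± 0.39 (limma adjusted p = 0.0175), from 27.8 to 232 in Dox+ and from 33.5 to 141 in Dox-. Pde9a, also specific for cyclic GMP, went from 126 to 37.8 and from 116 to 18.8 (-1.66 ± 0.27; adjusted p = 0.0118). The inhibitory G protein genes Gnai2 (0.95 ± 0.16) and Gnai3 (0.40 ± 0.10) rose, as did Creb1, the cyclic AMP-responsive transcription factor (0.87 ± 0.16), the regulatory subunit gene Prkar2b (0.75 ± 0.18) and the PKA inhibitor gene Pkig (0.50 ± 0.14). Their limma adjusted p lay between 0.0124 and 0.0486. Pde5a and Prkar2b passed the signal filter through arrays later than D0.5 alone, and Pde9a through undifferentiated and D0.5 arrays alone. Part of the difference between days of Pde5a, Prkar2b and Pde9a was thus built into their being tested. Gnas was thus not the only G protein alpha gene higher on D3.5 than on D0.5.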

How the data were processed

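The deposited table holds linear intensity values, 1 per probe set and array. Their source is GCOS, a program of the array's maker, per the submitters' processing notes; no source used here names a background correction or a detection filter. Per the labels the deposited intensity values are scaled to an average of 100, and the mean without the highest and lowest 2% of the 45101 probe sets was 100 on every array, so no further normalization was applied. Gene symbols are the platform's, brought up to date by gene ID from RefSeq (GRCm38.p6), except for members. The 932 probe sets naming several symbols were not used, and none named a member. The 36 members had 103 probe sets, and 10 members had 1 each; no other probe set of a member went the opposite way by at least 0.5 in the comparison on D2.5 and D3.5 or in that of D3.5 and D0.5.

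On log2(signal + 16), the 8716 genes that reached a signal of 50 on 2 or more of 9 arrays were fitted with limma (version 3.58.1, R 4.3.3; eBayes with trend) on the 8 arrays of differentiating cells, with day blocked for media and medium for days (3 residual degrees of freedom; 4 for the product with day). P-values were adjusted by Benjamini-Hochberg over all of them, with a threshold of 0.05. On D2.5 and D3.5, 1 difference was fitted, with the earlier pairs entering only the spread. The fits were tested on simulated data. The members, lists and tests were chosen with earlier results of these data known. Values of every array are given for members called in any fit, for those at least 2-fold apart the same way on D2.5 and D3.5, for Abcc4, Pde10a and Gnas, and for the 2 furthest apart of each role. Pde7a, Akap7 and other members with values were chosen after their values were seen. The labels give each group 1 array and no replicate number to pair.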

Additional observations from a re-analysis of the deposited data

Results flagged for a closer look

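From D0.5 to D3.5, Akap2 went down in Dox+ (-1.55, from 216 to 63.5) and up in Dox- (1.07, from 212 to 463.6), more than 2-fold each way. Each medium has 1 array per day, and the difference between these opposite changes was not tested itself. The steady change of its media difference with day, 0.95 ± 0.56 per day, did not pass (limma adjusted p = 0.667). Of the 22 tested members no other moved at least 2-fold in opposite directions between these days.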

How the results depend on the processing

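The alternatives were other pseudocounts (1 and 64), no signal filter or one of 100, quantile normalization, the mean over probe sets, eBayes without a trend, each day left out, and no day block. With no day block, the fit on D2.5 and D3.5 set the Dox- arrays of these days against all other arrays of differentiating cells. Its difference then mixes medium and day. The comparisons of media over 4 days and of the change with day called 0 members throughout. On D2.5 and D3.5, the 2 calls became 1 with the filter of 100 and 1 with no replicate block (day not in the fit), and lay between 1 and 3 with single days left out; Abcc4 was among the called in every setting. The 8 calls of D3.5 against D0.5 became 5 with the filter of 100 and 4 with the mean over probe sets, where 15 and 12 members were tested. Members 2-fold apart became 1 on D0.5 at a pseudocount of 1. On D1.5 the 3 became 0 at a pseudocount of 64, 1 with the filter of 100 and 0 with the mean over probe sets. On D2.5 the 4 became 2 at a pseudocount of 64 and 2 with the filter of 100. Against undifferentiated cells, the counts became 2 in Dox+ and 3 in Dox- at a pseudocount of 1, and 0 in Dox- at a pseudocount of 64. Of the 13 members followed through the alternatives, those whose sign turned did so for a difference on D2.5 and D3.5 that did not pass: Adcy6 (-0.09 without D3.5, 0.31 without D2.5, 0.96 with no replicate block), Pde8a (-0.08 and 0.29 likewise), Adcy7 (0.34 without D2.5, -0.91 without D3.5) and, with no replicate block, Pde3b (0.07), Pde4b (0.38), Pde8a (-0.69) and Akap11 (-0.15). The values with no replicate block hold changes with day as well, so they do not give the same difference. Apart from this and fewer members tested, the cause was not tested. The main comparison on D2.5 and D3.5 paired the media by day. Among these 13, only the call of Pde1b changed with no replicate block, where medium and day are mixed. The labels give no replicate numbers to pair beyond the day. Dim genes are limited most: a value near 16 or below moves little on this scale.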
